A study of Mus musculus with 3 samples.

Results

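The FGF and ERK feedback genes are a set of 10 genes chosen by name from the fibroblast growth factor (FGF) pathway: Fgf4, Fgfr1, Fgfr2, Dusp6, Spry2, Spry4, Etv4, Etv5, Egr1 and Spred1. Of these, 9 were listed under their own name in the RNA-seq of mouse embryonic stem (ES) cells, out of 25350 genes with a name of their own, and Fgfr2 was listed only in a joint locus with its neighbour Ctbp2. A value above 0 was found for 7 of the 9, and Spry2 and Spry4 were listed at 0 in every sample.

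The RNA-seq comprised 3 samples, 1 for each of 3 kinds of C57BL/6 ES cells, all grown in serum with leukemia inhibitory factor on mouse embryonic fibroblast feeders arrested with mitomycin-C. The wild type (WT) sample was unedited. The Pcgf1-/- sample (labelled Pcgf1KO) came from cells edited by Cas9 with sgRNAs against exons 2 and 3 of Pcgf1, a core subunit of the Polycomb complex PRC1.1, and grown from single colonies. The rescue sample (labelled Pcgf1KO+ Pcgf1_flag, here Pcgf1-/-+Pcgf1) came from the knockout cells after lentiviral delivery of Pcgf1 with an N-terminal Flag tag and puromycin selection, and the promoter of that vector is not given in the sources used here. With 1 sample per group no difference has a replicate check, no test was run, and clone, culture and genotype cannot be told apart.

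Mouse ES cells secrete Fgf4, which binds the receptors Fgfr1 and Fgfr2 on the same cells and starts the Ras, Raf, Mek and Erk kinase cascade. Erk signaling is known to push ES cells out of self-renewal and toward differentiation, and in the blastocyst it directs inner cell mass cells to primitive endoderm. The cascade limits itself: Erk activity induces transcription of the phosphatase Dusp6 and of Sprouty (Spry) and Spred proteins, which act back on Erk or on Ras and Raf, together with the ETS factors Etv4 and Etv5 and the immediate early factor Egr1. The levels of these genes are often used as a readout of the pathway.

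The values are FPKM, fragments per kilobase of transcript scaled to the mapped fragments of the library, so levels of different genes are compared per length. A gene's level is the FPKM summed over its first exons or over its last exons, whichever sum was larger. Differences are log2 ratios of FPKM + 0.1, and a gene was called past 2-fold when such a ratio exceeded 2-fold in either direction. The files hold no counts, so the depth behind each value is unknown and no interval can be given. Where 3 values follow each other without sample names, they are those of WT, Pcgf1-/- and Pcgf1-/-+Pcgf1 in this order.

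Pcgf1, the edited gene, had 14.0 FPKM in WT, 5.88 FPKM in Pcgf1-/- and 7.86 FPKM in Pcgf1-/-+Pcgf1. It was thus lower in Pcgf1-/- but still transcribed, and the transgene was not seen as a level above WT. All 5.88 FPKM of Pcgf1-/- were in a form that skips 83078895 to 83079268, and no such form was listed in the other samples. The paper reports a truncated transcript and no detectable Pcgf1 protein in the knockout cells. ES cell markers, 6 of 8 under their own name, summed to 1908, 1908 and 1720 FPKM, with Nanog past 2-fold higher in Pcgf1-/-+Pcgf1 against Pcgf1-/-. Feeder fibroblast markers, 11 of 12, summed to 20.4 FPKM in WT, 10.8 FPKM in Pcgf1-/- and 21.5 FPKM in Pcgf1-/-+Pcgf1, with 4 past 2-fold lower in Pcgf1-/- against WT, 4 past 2-fold higher in Pcgf1-/-+Pcgf1 against Pcgf1-/-, and Postn and Fap at 0 throughout. Of these sums Thy1 alone gave 14.2, 6.39 and 13.5 FPKM. Dcn (0.352, 0.779 and 1.18 FPKM) and Loxl1 (1.41, 1.80 and 2.46 FPKM) were instead higher in Pcgf1-/- than in WT, within 2-fold. The fibroblast sum was thus lowest in Pcgf1-/-, the sample in which Etv4 and Dusp6 were highest, but its markers did not all go the same way. Primitive endoderm markers, 6 of 6, summed to 2.22, 2.73 and 3.002 FPKM. Gata6 and Sox7 were past 2-fold higher in Pcgf1-/- against WT. Gata6 and Sox17 were past 2-fold lower in Pcgf1-/-+Pcgf1 against Pcgf1-/-, whereas Sox7 was not (0.144, 0.414 and 0.648 FPKM). Each of these genes was below 1 FPKM in every sample, where ratios depend on the pseudocount. In bulk RNA fewer cells of a type and less RNA per cell cannot be told apart, and the part of these cells in the values of the members was not tested.

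Etv4 and Dusp6 were the members that differed most. Both were higher in Pcgf1-/- than in WT and lower again in Pcgf1-/-+Pcgf1, with Etv4 past 2-fold in both steps and Dusp6 in the second. Fgf4, Etv5, Egr1 and Spred1 were within 2-fold in every comparison. The sum over the starts of Fgfr1 was close to that of WT in Pcgf1-/- and lowest in Pcgf1-/-+Pcgf1, with starts that differed between samples. The first and second comparison share the Pcgf1-/- sample, so a high value in that sample alone would give both.

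Etv4 (ENSMUSG00000017724, mm10 chromosome 11, 101769742 to 101785371, minus strand) encodes an ETS transcription factor of the PEA3 group, a transcriptional target of FGF and Erk signaling. WT cells had 29.7 FPKM of it, Pcgf1-/- cells 70.7 FPKM and Pcgf1-/-+Pcgf1 cells 25.4 FPKM. Only Pcgf1-/- was high, and the other samples were close to each other. The level was 2.38-fold higher in Pcgf1-/- than in WT (log2 ratio 1.25) and 2.77-fold lower in Pcgf1-/-+Pcgf1 than in Pcgf1-/- (log2 ratio -1.47). Against WT, Pcgf1-/-+Pcgf1 had a log2 ratio of -0.22, which turned to 0.06 when only first exons were summed. Among the 9438 genes with at least 1 FPKM in WT or Pcgf1-/-, 98.1% had a lower ratio of Pcgf1-/- to WT than Etv4. Among the 9565 such genes of the second comparison, 1.51% had a lower ratio of Pcgf1-/-+Pcgf1 to Pcgf1-/-.

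Dusp6 (ENSMUSG00000019960, chromosome 10, 99263231 to 99267489, plus strand) encodes a cytoplasmic phosphatase that removes the activating phosphates of Erk. It had 44.5 FPKM in WT, 69.5 FPKM in Pcgf1-/- and 24.4 FPKM in Pcgf1-/-+Pcgf1. The order of the samples was that of Etv4, but Pcgf1-/-+Pcgf1 lay further below WT. The level was 1.56-fold higher in Pcgf1-/- than in WT (log2 ratio 0.64), short of 2-fold, and 93.6% of genes had a lower ratio. It was 2.84-fold lower in Pcgf1-/-+Pcgf1 than in Pcgf1-/- (log2 ratio -1.51), where 1.37% of genes had a lower ratio, and 1.82-fold lower than in WT (log2 ratio -0.87).

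Fgfr1 (ENSMUSG00000031565, chromosome 8, 25513654 to 25575718, plus strand), a receptor tyrosine kinase for Fgf4, had 21.8 FPKM in WT, 24.3 FPKM in Pcgf1-/- and 11.8 FPKM in Pcgf1-/-+Pcgf1. The low sample here was Pcgf1-/-+Pcgf1. The log2 ratio was 0.16 between Pcgf1-/- and WT, -1.03 between Pcgf1-/-+Pcgf1 and Pcgf1-/- and -0.88 between Pcgf1-/-+Pcgf1 and WT. The second of these lay just past 2-fold (2.05-fold lower). It fell short of 2-fold with a pseudocount of 1 FPKM (log2 ratio -0.98) and after median-of-ratios scaling (-0.97). Only the start that ends at 25519429 had a value in every sample. Its log2 ratio was -0.37 between Pcgf1-/-+Pcgf1 and Pcgf1-/- and -0.53 between Pcgf1-/-+Pcgf1 and WT. The rest of the sums in WT and in Pcgf1-/- came from starts listed above 0 in that sample only. The annotation places an antisense gene inside Fgfr1, and the library protocol names no step that keeps strand, so reads from where they overlap cannot be told apart.

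Fgf4 (ENSMUSG00000050917, chromosome 7, 144847367 to 144865243, plus strand), the ligand made by ES cells themselves, had 80.5 FPKM in WT, 69.2 FPKM in Pcgf1-/- and 75.7 FPKM in Pcgf1-/-+Pcgf1. Its log2 ratios were -0.22 for Pcgf1-/- to WT and 0.13 for Pcgf1-/-+Pcgf1 to Pcgf1-/-. The ligand thus stayed near its WT level where Etv4 was past 2-fold higher.

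Etv5 (ENSMUSG00000013089, chromosome 16, 22381309 to 22439719, minus strand), the close relative of Etv4, was the most abundant member in each sample, at 100.5 FPKM in WT, 98.9 FPKM in Pcgf1-/- and 115.9 FPKM in Pcgf1-/-+Pcgf1. Its log2 ratios were -0.02 and 0.23, and the first turned to 0.04 after scaling. The relatives thus stood apart: with Pcgf1-/- set against WT, Etv4 was at 1.25 and Etv5 at -0.02 on the log2 scale.

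Spred1 (ENSMUSG00000027351, chromosome 2, 117121374 to 117182279, plus strand), a membrane-bound inhibitor of Raf activation, had 14.7 FPKM in WT, 12.9 FPKM in Pcgf1-/- and 13.1 FPKM in Pcgf1-/-+Pcgf1. Egr1 (ENSMUSG00000038418, chromosome 18, 34859823 to 34864984, plus strand), a zinc finger factor transcribed within minutes of Erk activation, was the lowest measured member, at 5.03 FPKM in WT, 4.55 FPKM in Pcgf1-/- and 4.11 FPKM in Pcgf1-/-+Pcgf1. In neither gene did a log2 ratio exceed 0.29 in size in any comparison.

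**Figure D1:**
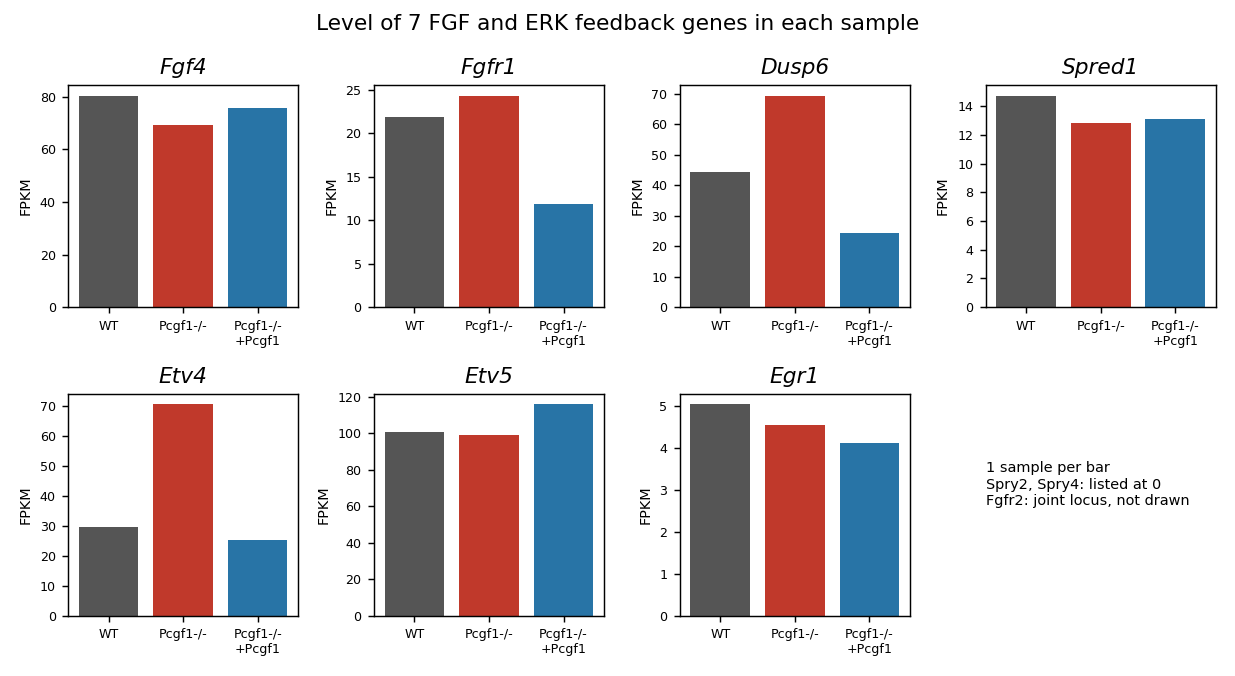
Level in FPKM (vertical axis, from 0) of the 7 members with a value above 0, 1 bar for each of WT, Pcgf1-/- and Pcgf1-/-+Pcgf1, with 1 sample per bar and no error. Etv4 and Dusp6 have their tallest bar in Pcgf1-/- (70.7 and 69.5 FPKM), Fgfr1 has its shortest in Pcgf1-/-+Pcgf1 (11.8 FPKM), and the other 4 differ little between samples.

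The order of the members by level per length was Etv5, Fgf4, Dusp6, Etv4, Fgfr1, Spred1 and Egr1 in WT. In Pcgf1-/- Etv4 moved up to the second place, and Etv4, Dusp6 and Fgf4 lay between 69.2 and 70.7 FPKM. In Pcgf1-/-+Pcgf1 Etv4 and Dusp6 were again below Fgf4, and Fgfr1 was below Spred1. With 1 sample per group, no spread is at hand to say which neighbours in these orders differ.

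Past 2-fold between Pcgf1-/- and WT was 1 of the 7 measured members, Etv4, which was higher. Over all 25350 listed genes 7.14% were past 2-fold in this comparison, and among genes of at least 1 FPKM in the higher sample 9.09% were, 2.98% higher and 6.11% lower. Between Pcgf1-/-+Pcgf1 and Pcgf1-/-, 3 of the 7 were past 2-fold, Etv4, Dusp6 and Fgfr1, and all 3 were lower. For Fgfr1 the value was a sum over starts that differed between the samples. The background in this comparison was 8.57% of all listed genes and 10.8% of genes of at least 1 FPKM, with 7.23% higher and 3.60% lower. Between Pcgf1-/-+Pcgf1 and WT 0 of the 7 were past 2-fold, against 6.34% of all listed genes and 6.49% of those of at least 1 FPKM. The medians of the 7 log2 ratios were -0.02, -0.14 and -0.22, beside -0.09, -0.01 and -0.11 over genes of at least 1 FPKM. Scaling by the median of ratios raised all log2 ratios by 0.07, 0.06 and 0.12, and under it Fgf4 in Pcgf1-/-+Pcgf1 against WT turned from -0.09 to 0.03. Counts from comparisons that share a sample are not independent of each other.

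**Figure D2:**
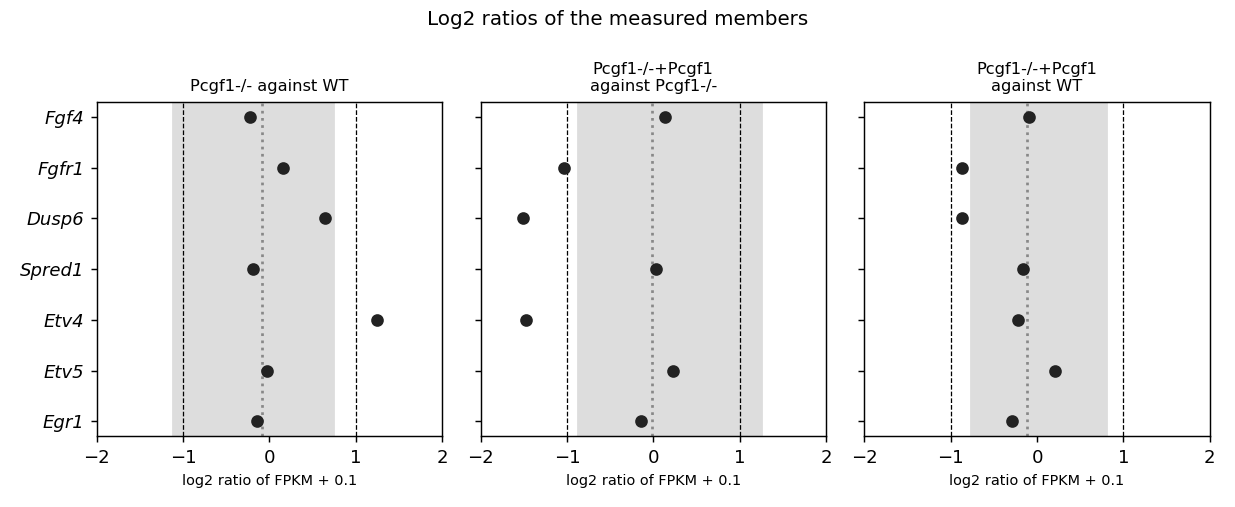
Log2 ratio of FPKM + 0.1 (horizontal axis) of each measured member (rows) in the 3 comparisons (panels). Points are single ratios of 1 sample to 1 sample, dashed lines mark 2-fold, the dotted line is the median and the grey band the 5th to 95th percentile of all genes of at least 1 FPKM. Etv4 lies right of the band in the first panel (1.25). In the second, Etv4, Dusp6 and Fgfr1 lie left of it (-1.47, -1.51 and -1.03). In the third, Dusp6 and Fgfr1 lie left of it (-0.87 and -0.88), short of 2-fold. The points of Fgfr1 are sums over starts. Its only start above 0 in every sample had -0.37 and -0.53 in these panels, inside the band.

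Spry2 (ENSMUSG00000022114, chromosome 14, 105891947 to 105896819, minus strand) and Spry4 (ENSMUSG00000024427, chromosome 18, 38586247 to 38601415, minus strand) encode Sprouty proteins, feedback inhibitors of receptor tyrosine kinase signaling. Both were listed at 0 in all 3 samples. Their rows nevertheless differed between samples. The first exon of Spry2 ran to 105897045 in WT and to the annotated end, 105896819, in the other samples, and a second Spry4 first exon, 38602904 to 38602975, was listed in WT only. The 0 of such rows was therefore not read as absence of the transcript, and no statement on the expression of either gene was drawn from it. Among all listed genes, 11290 were at 0 everywhere, and 57 were above 5 FPKM in one sample and at 0 in another.

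Fgfr2 (ENSMUSG00000030849, chromosome 7, minus strand), which encodes the second FGF receptor of the early embryo, shared its locus with Ctbp2. The 8 first-exon and last-exon rows on the Fgfr2 side, between 130163608 and 130266245, were listed at 0 in every sample. The joint locus had 125.9, 138.5 and 119.6 FPKM in WT, Pcgf1-/- and Pcgf1-/-+Pcgf1, and all of it came from 1 first exon at 133123141 to 133123350 on the Ctbp2 side. GENCODE vM21 lists that exon under Fgfr2, whose annotated span, 130162451 to 133123350, ends with it. The signal of the joint locus was not divided between the genes. These values were therefore not read as a level of Fgfr2.

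The files also give the FPKM of the transcripts behind each first exon, which shows members that kept their level while the start used for it differed. In Spred1 a first exon upstream of the annotated gene ended at 117120275, with an outer end listed at 117120239 in WT, at 117120051 in Pcgf1-/- and at 117120161 in Pcgf1-/-+Pcgf1. GENCODE vM21 holds no such exon. Transcripts with it had 2.83 FPKM in WT, 6.04 FPKM in Pcgf1-/- and 9.59 FPKM in Pcgf1-/-+Pcgf1, which was 19.2%, 47.0% and 73.1% of the gene. Transcripts from the annotated first exon, 117121374 to 117121756, had 11.9, 6.81 and 3.53 FPKM. The upstream start was thus lowest in WT and highest in Pcgf1-/-+Pcgf1, and the annotated start the reverse, with the sum almost level. The log2 ratios to WT were 1.07 in Pcgf1-/- and 1.73 in Pcgf1-/-+Pcgf1 for the upstream start, and -0.80 and -1.73 for the annotated one. Pcgf1-/-+Pcgf1 lay further from WT than Pcgf1-/- in both. How the estimates were divided between transcripts is not stated, and no share has an error.

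Fgfr1 had 9 first exons in the list, of which 3 carried a value. The most upstream of these, which ends at 25519429, had 17.1 FPKM in WT, 15.4 FPKM in Pcgf1-/- and 11.8 FPKM in Pcgf1-/-+Pcgf1, where it was the whole signal. A start at 25519837 to 25519923 had 8.95 FPKM in Pcgf1-/-, 36.8% of the gene, and was listed at 0 in the other samples. A start inside the gene had 4.71 FPKM in WT, 21.6% of the gene, and was listed at 0 in the others. The upstream start alone was lower in Pcgf1-/- than in WT, so the higher Fgfr1 sum in Pcgf1-/- included a start listed above 0 in this sample only. The exon at 25532250 to 25532428 lies before the start inside the gene. It had 17.1 FPKM in WT, 24.3 FPKM in Pcgf1-/- and 11.8 FPKM in Pcgf1-/-+Pcgf1, so transcripts with it were higher in Pcgf1-/- than in WT. A listed 0 was not read as absence of a start. How the estimates were divided between nearby starts is not stated.

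Egr1 had a spliced first exon at 34861207 to 34861333 with 4.20, 4.55 and 3.67 FPKM in WT, Pcgf1-/- and Pcgf1-/-+Pcgf1, and a long first exon at 34859823 to 34861786 with 0.834 FPKM in WT, 0.435 FPKM in Pcgf1-/-+Pcgf1 and a listed 0 in Pcgf1-/-. The spliced start held at least 83.4% of the gene in each sample. Dusp6, Fgf4 and Etv5 had 1 first exon each, and of 3 first exons of Etv4 only 1, at 101785108 to 101785310, was above 0, with 19.1, 47.0 and 19.9 FPKM, while the level of Etv4 given before is that of its last exons. The first exon values of these 4 genes in the 3 samples therefore compare the same start.

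Etv4 had a coding exon with a pair of forms that share the end at 101774081. The short form, to 101774227 (147 bases), had 10.6 FPKM in WT, 25.4 FPKM in Pcgf1-/- and 6.54 FPKM in Pcgf1-/-+Pcgf1. The long form, to 101774245 (165 bases), had 19.1, 45.3 and 18.9 FPKM. The long form was the larger in each sample. It held 64.2% of the sum in WT and 64.1% in Pcgf1-/-, beside 74.3% in Pcgf1-/-+Pcgf1, so that both forms were higher in Pcgf1-/- by the same factor (log2 ratio 1.25 each). The extension that separates the forms is shown because it is the only part of the Etv4 protein for which the files give forms with a value. It has 18 bases, a length that keeps the reading frame, within the coding sequence at the upstream end of the exon, on the minus strand (sequence from GENCODE vM21 transcripts on mm10), and nothing in it is marked by capitals.
Etv4 exon extension, chr11:101774228-101774245: tgcctatgactcccccag
Against Pcgf1-/-, Pcgf1-/-+Pcgf1 had a log2 ratio of -1.94 for the short form and -1.26 for the long form.

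**Figure D3:**
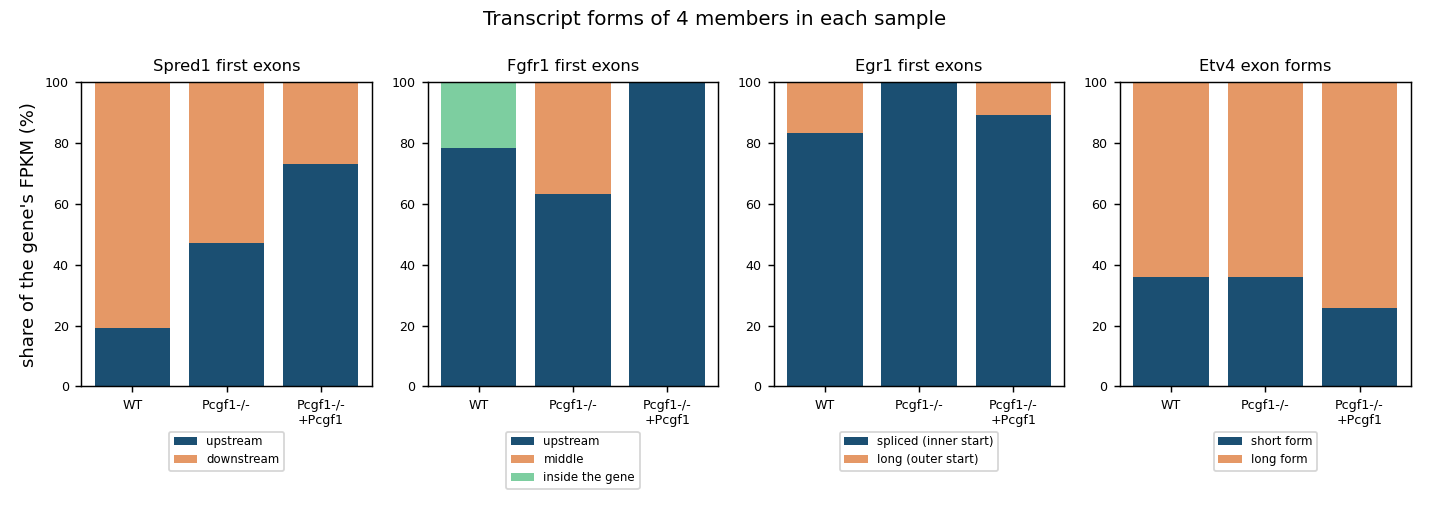
Share of the gene's FPKM in percent (vertical axis, 0 to 100) carried by each first exon of Spred1, Fgfr1 and Egr1 and by each form of the Etv4 exon, stacked for WT, Pcgf1-/- and Pcgf1-/-+Pcgf1, 1 sample each. The upstream start of Spred1 goes from 19.2% in WT to 73.1% in Pcgf1-/-+Pcgf1, while the forms of Etv4 are alike in WT and Pcgf1-/- (35.8% and 35.9% short).

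The windows upstream of the starts were searched for letters bound by factors that act downstream of Erk: the ETS motif CGGAA, the AP-1 motif TGANTCA and the cyclic AMP response element TGACGTCA, each on either strand. CGGAA is stricter than the ETS core GGAA, which was not counted. RefSeq windows of 250 bases before the start (GRCm38.p6) matched 6 of the 10 members by symbol. The ETS motif CGGAA occurred in 2 of the 6, Dusp6 and Spred1, and in 25.2% of 32851 mouse promoter windows of the same length. The AP-1 motif (6.75% of windows) and the response element (1.55%) occurred in 0 of the 6. The windows of Dusp6, Spred1 and Fgf4 are shown, with matches to CGGAA on either strand in capitals. That of Dusp6 had the most matches, that of Spred1 lies between both starts above, and Fgf4 is the ligand with no match.
Dusp6, chr10:99262981-99263230, plus strand: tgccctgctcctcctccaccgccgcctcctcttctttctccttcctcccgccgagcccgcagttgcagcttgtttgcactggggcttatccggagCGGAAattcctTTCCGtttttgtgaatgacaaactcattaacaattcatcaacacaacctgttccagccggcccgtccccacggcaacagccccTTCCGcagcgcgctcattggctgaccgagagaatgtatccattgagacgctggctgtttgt
Spred1, chr2:117120821-117121070, plus strand: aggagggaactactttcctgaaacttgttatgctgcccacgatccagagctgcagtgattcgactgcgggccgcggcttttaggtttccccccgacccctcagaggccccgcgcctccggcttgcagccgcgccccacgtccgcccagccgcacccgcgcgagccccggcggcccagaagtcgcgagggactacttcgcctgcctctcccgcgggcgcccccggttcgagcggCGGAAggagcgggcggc
Fgf4, chr7:144861136-144861385, plus strand: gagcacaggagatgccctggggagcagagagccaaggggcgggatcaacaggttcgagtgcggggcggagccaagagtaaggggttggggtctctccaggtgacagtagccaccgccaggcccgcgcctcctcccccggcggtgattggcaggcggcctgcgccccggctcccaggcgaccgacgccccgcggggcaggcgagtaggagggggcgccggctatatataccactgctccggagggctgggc
The 3 matches of Dusp6 lay 155, 144 and 61 bases before the start, and that of Spred1 17 bases before it. The windows of Dusp6 and Fgf4 end at the base before the first exon listed in all 3 samples. A match is a run of letters and not a site, and a window without one says nothing about a factor.

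The other genes of the pathway were taken as a list of 74, from ligands to immediate early genes, of which 63 had a name of their own in every file and 59 a value above 0. Between Pcgf1-/- and WT, 5 of the 44 genes with at least 1 FPKM were past 2-fold higher and 0 were lower, with a median log2 ratio of 0.07. Between Pcgf1-/-+Pcgf1 and Pcgf1-/-, 1 of 45 was past 2-fold higher and 6 were lower, with a median of -0.30. Between Pcgf1-/-+Pcgf1 and WT, 0 of 42 were higher and 1 was lower, with a median of -0.20. The genes of at least 1 FPKM past 2-fold higher over the whole table were 2.98%, 7.23% and 3.84% in these comparisons, and those lower 6.11%, 3.60% and 2.65%. Without a limit on the level, the 63 genes gave 6 higher and 2 lower, 2 higher and 6 lower, and 2 higher and 3 lower, and the last split became 3 higher and 2 lower after scaling. Of all 25350 listed genes, 2.16% were higher and 4.98% lower in the first comparison, 6.35% and 2.22% in the second, and 3.99% and 2.36% in the third.

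With at least 1 FPKM in the higher sample, the genes past 2-fold in Pcgf1-/- against WT were 3 ligands and 2 immediate early genes. Below that level 3 more were past 2-fold: the receptor Fgfr3, which was higher, and the ligands Fgf22 (0.838, 0.277 and 0.262 FPKM) and Fgf23 (0.122 FPKM in WT, listed at 0 in Pcgf1-/-, 0.0861 FPKM in Pcgf1-/-+Pcgf1), which were lower. Fgf8, a ligand of gastrulation and limb outgrowth, had 0.420 FPKM in WT, 1.28 FPKM in Pcgf1-/- and 0.830 FPKM in Pcgf1-/-+Pcgf1. Fgf10, a ligand of limb and lung budding, had 0.263, 1.19 and 0.641 FPKM, and Fgf15, the gut hormone that signals to the liver, had 1.02, 2.59 and 1.83 FPKM. Fgf8, Fgf10 and Fgf15 were low, and in them Pcgf1-/-+Pcgf1 lay between the other samples. The log2 ratios of Pcgf1-/- to WT were 1.40 for Fgf8, 1.83 for Fgf10 and 1.26 for Fgf15. With a pseudocount of 1 FPKM they were 0.68, 0.80 and 0.83, short of 2-fold. Fgf17, of the same subfamily as Fgf8, had the other order, with 8.65 FPKM in WT, 5.78 FPKM in Pcgf1-/- and 15.7 FPKM in Pcgf1-/-+Pcgf1, where its last exons summed to 9.74 FPKM, within 2-fold of Pcgf1-/-.

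Myc, a growth regulator transcribed and stabilized downstream of Erk, had 30.3 FPKM in WT, 65.5 FPKM in Pcgf1-/- and 23.2 FPKM in Pcgf1-/-+Pcgf1. Fosl1, a subunit of AP-1, had 1.06, 2.66 and 0.950 FPKM. Both had the order of Etv4, with log2 ratios of 1.11 and 1.25 in Pcgf1-/- against WT and -1.50 and -1.39 in Pcgf1-/-+Pcgf1 against Pcgf1-/-. With a pseudocount of 1 FPKM those of Fosl1 were 0.83 and -0.91, short of 2-fold. Fos, an AP-1 subunit and classical immediate early gene, had 0.394, 0.554 and 0.752 FPKM and was within 2-fold in each comparison.

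Among the feedback inhibitors related to members, Dusp4, a nuclear Erk phosphatase, had 11.1 FPKM in WT, 17.8 FPKM in Pcgf1-/- and 7.37 FPKM in Pcgf1-/-+Pcgf1. Dusp5, also nuclear, had 8.04, 11.6 and 5.29 FPKM. Both had the order of Dusp6: short of 2-fold in Pcgf1-/- against WT (log2 ratios 0.68 and 0.53) and past it, lower, in Pcgf1-/-+Pcgf1 against Pcgf1-/- (-1.26 and -1.12). Of other Dusp genes, given here after their values were seen, Dusp1 also had the order of Dusp6, with 21.2, 25.0 and 16.3 FPKM. It was within 2-fold in every comparison. The others had other orders: Dusp9 had 27.9, 40.4 and 37.5 FPKM, Dusp7 had 9.61, 8.78 and 8.86 FPKM, and Dusp2 had 0.745, 0.753 and 1.19 FPKM. Of the 12 feedback inhibitors with a value above 0, 2 were past 2-fold in Pcgf1-/-+Pcgf1 against Pcgf1-/-, Dusp4 and Dusp5, and 0 in the other comparisons. Of all genes of at least 1 FPKM, 10.8% were past 2-fold in Pcgf1-/-+Pcgf1 against Pcgf1-/-, and 3.60% were lower. In the other comparisons 9.09% (Pcgf1-/- against WT) and 6.49% (Pcgf1-/-+Pcgf1 against WT) were past 2-fold. Spry1 had 7.44, 7.32 and 5.84 FPKM and Spred2 had 33.6, 33.1 and 28.0 FPKM, and their log2 ratios lay between -0.34 and -0.02. Spry1 was thus the Sprouty gene with a value in these samples.

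Elk3, an ETS factor of the ternary complex family, had 9.72 FPKM in WT, 15.5 FPKM in Pcgf1-/- and 4.60 FPKM in Pcgf1-/-+Pcgf1, and was past 2-fold lower in Pcgf1-/-+Pcgf1 against both Pcgf1-/- (log2 ratio -1.73) and WT (-1.06). The second fell short of 2-fold, at -0.94, both with a pseudocount of 1 FPKM and after median-of-ratios scaling. Etv1, the remaining PEA3 factor beside Etv4 and Etv5, had 2.73, 3.17 and 2.36 FPKM. Fgfr3 and Fgfr4, the other receptors of the family, had 0.162, 0.777 and 0.698 FPKM and 0.553, 1.03 and 0.657 FPKM. Fgfr3 was past 2-fold higher in Pcgf1-/- and in Pcgf1-/-+Pcgf1 than in WT (log2 ratios 1.74 and 1.61), and short of 2-fold with a pseudocount of 1 FPKM (0.61 and 0.55). The levels of both lay far below that of Fgfr1 in each sample.

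In the Ras to Erk cascade, the GTPases and kinases between receptor and feedback, 0 of 11 genes were past 2-fold in any comparison, with median log2 ratios of -0.09, -0.05 and -0.23. At 9.09%, 10.8% and 6.49% of all genes of at least 1 FPKM, a count of 0 in 11 is near the background. Of 7 receptor adaptors, 1 was past 2-fold in 1 comparison: Sos2, an exchange factor for Ras, with 3.59, 5.95 and 2.05 FPKM (log2 ratio -1.49 in Pcgf1-/-+Pcgf1 against Pcgf1-/-). These values came from last exons, whereas first exons gave 1.69, 2.61 and 1.36 FPKM, within 2-fold.

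**Figure D4:**
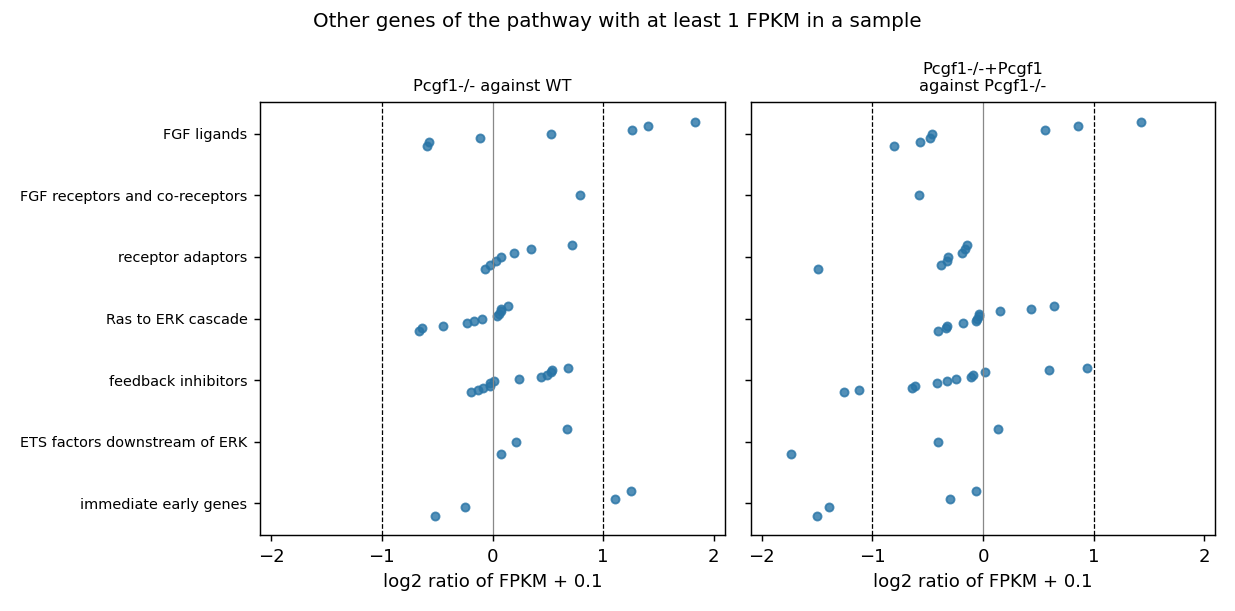
Log2 ratio of FPKM + 0.1 (horizontal axis) of the pathway genes other than the members, by role (rows), for Pcgf1-/- against WT and Pcgf1-/-+Pcgf1 against Pcgf1-/-. Each of the 45 points per panel is 1 gene with at least 1 FPKM in WT or Pcgf1-/- or Pcgf1-/-+Pcgf1, dashed lines mark 2-fold, and the Ras to Erk cascade lies between them in both panels.

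The genes nearest to Etv4 by Euclidean distance over the log2 ratios of Pcgf1-/- to WT and of Pcgf1-/-+Pcgf1 to WT, among 5875 genes of at least 5 FPKM in every sample, were Akap8l, Hbegf and Perp. Akap8l, a nuclear scaffold protein, had 16.5, 37.7 and 14.7 FPKM (distance 0.083), but its value in Pcgf1-/- came from last exons, whereas first exons gave 4.43 FPKM there, below the other samples. Hbegf, a ligand of the EGF receptor, had 7.28, 18.5 and 6.03 FPKM (0.0971), and Perp, a membrane protein of desmosomes, had 17.0, 43.7 and 14.0 FPKM (0.122). The likeness is over 3 samples only.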

How the data were processed

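RNA was poly-A selected, primed with random hexamers and sequenced as paired ends on an Illumina instrument. The authors deposited 1 file per sample of transcript events (first exon, last exon, skipped exon, alternative exon end) with an FPKM per event on mm10. The submitters' processing notes name TopHat2 2.0.12, Cufflinks 2.2.1 and HTSeq 0.6.0, and the software behind the event lists is not given in the sources used here. No counts were in the files, so depth is unknown.

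For each single gene name, FPKM were summed over first exons and over last exons, and the larger sum was kept. Joint names, rows without a name and names that had become dates were left out. Groups were taken from the genotype labels. Ratios used a pseudocount of 0.1 FPKM, which understates differences of low genes, and a limit of 2-fold, and no test was made with 1 sample per group. The script was tested on simulated data without noise, which checks the calculation and not the error of 1 sample per group. The number of alternatives computed was 6.

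The members and gene lists were chosen with earlier results of these data known. Named in the text were the members, pathway genes past 2-fold in any comparison with at least 1 FPKM in one of its samples, direct relatives of members (Fgfr3, Fgfr4, Spry1, Spred2, Dusp4, Etv1, Fos), Pcgf1, marker lists, and the 3 genes nearest to the member with the largest ratio of Pcgf1-/- to WT. Named outside this rule were Fgf22 and Fgf23, which lay below that level, and Dusp1, Dusp2, Dusp7 and Dusp9. Part of the exon-level readings is not reported here. Positions are from GENCODE vM21 and promoter windows from RefSeq. Python 3.11.15, pandas 2.3.3, numpy 2.4.6 and matplotlib 3.10.9 were used.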

Additional observations from a re-analysis of the deposited data

How the results depend on the processing

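The number of members past 2-fold was 1 in Pcgf1-/- against WT under all 6 alternatives and 0 in Pcgf1-/-+Pcgf1 against WT. In Pcgf1-/-+Pcgf1 against Pcgf1-/- it was 3, or 2 with a pseudocount of 1 FPKM, with last exons only (which give no value for Fgfr1 and Etv5) and after median-of-ratios scaling. Of 120 single log2 ratios recomputed, 118 kept their side of the limit and 2, both of Fgfr1, fell short of it. Part of this count could not have come out otherwise. The limit on the level changed no member ratio, and last exons alone changed none of those they gave. First exons alone changed only the ratios of Etv4. The pathway list moved more. In Pcgf1-/- against WT its 8 genes past 2-fold became 1 with a pseudocount of 1 FPKM, 14 with 0.01 FPKM and 5 with at least 1 FPKM in the higher sample. In Pcgf1-/-+Pcgf1 against Pcgf1-/- its 8 became 14 with a pseudocount of 0.01 FPKM. In Pcgf1-/-+Pcgf1 against WT its 5 became 0 with a pseudocount of 1 FPKM and 1 with the limit on the level. Ratios of genes near or below 1 FPKM therefore depend on the pseudocount. No paired analysis was possible because each group had 1 sample, and for the same reason no replicate could be left out.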
